A study of Mus musculus with 2 samples.

Results

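The iron and haem handling genes Hmox1, Blvrb, Fth1, Ftl1, Tfrc, Trf, Slc11a1, Slc40a1 and Cp were followed across the macrophage groups and stromal types of mouse dorsal skin. They were chosen by name, as 9 of the 32285 genes measured, and all 9 had counts in the kept cells. The cells came from shaved dorsal skin of male wild-type (WT) mice aged 9 weeks or 108 weeks, and the cells of 2 mice were pooled at each age. Cells positive for the macrophage surface protein F4/80 and high for MHC class II, which presents antigen to T cells, were sorted by flow cytometry, and 1 droplet library was sequenced per age. No treatment was given at either age, the cells were not cultured, and the animals of a pool cannot be told apart. The 2 libraries are told apart by a barcode suffix, 1 or 2, and neither the labels nor the study's methods say which suffix is which age. Young and old skin were therefore not compared, and the libraries serve only as a pair of measurements set side by side.

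Macrophages take up old red blood cells and other haem sources, and the iron they free is either stored or returned to the circulation. Haem oxygenase 1 (Hmox1) opens the haem ring and releases iron, carbon monoxide and biliverdin. Blvrb encodes a reductase of biliverdin and flavins. Ferritin, a shell built of heavy (Fth1) and light (Ftl1) chains, stores iron, and ferroportin (Slc40a1) is the only known exporter of free iron from mammalian cells. Transferrin (Trf) carries iron outside cells, the transferrin receptor (Tfrc) brings it in, Slc11a1 (NRAMP1) moves iron out of the phagosome, and ceruloplasmin (Cp) oxidises exported iron so that transferrin can bind it. Skin macrophages that lie along vessels and carry Lyve1 and Folr2 are known as scavenging resident cells.

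Ferritin and transferrin receptor mRNAs carry iron-responsive elements, short hairpins to which iron regulatory proteins bind when iron is low. Binding blocks translation where the hairpin lies in the 5' UTR, and it protects the mRNA from decay where the hairpins lie in the 3' UTR, so that a Tfrc mRNA level answers to iron in another way than a ferritin mRNA level. A search of the GENCODE vM21 transcripts (GRCm38) for the loop CAGTGN, with N not G, closed by a stem of 5 pairs and preceded by an unpaired C found 1 such site in Fth1-201, 1 in Ftl1-201 and 4 in Tfrc-201. By the same search, 222 of 21901 protein-coding genes (1.01%) held a site in any transcript. The sites are shown because the ferritin chains and the transferrin receptor share them at the RNA level. Sites were listed for Fth1, Ftl1 and Tfrc only. Whether the other members, Slc40a1 among them, hold such a site is not reported here. Each is 27 bases long, written 5' to 3' on the strand of the gene, with the loop in capitals.
Fth1 site 1, chr19:9982733-9982759, plus strand, 5' UTR in exon 1: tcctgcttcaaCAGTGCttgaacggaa
Ftl1 site 1, chr7:45459780-45459806, minus strand, 5' UTR in exon 1: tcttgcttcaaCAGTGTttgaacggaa
Tfrc site 1, chr16:32631220-32631246, plus strand, 3' UTR in exon 19: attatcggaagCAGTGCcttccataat
Tfrc site 2, chr16:32631599-32631625, plus strand, 3' UTR in exon 19: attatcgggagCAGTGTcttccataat
Tfrc site 3, chr16:32631664-32631690, plus strand, 3' UTR in exon 19: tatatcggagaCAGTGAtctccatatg
Tfrc site 4, chr16:32631711-32631737, plus strand, 3' UTR in exon 19: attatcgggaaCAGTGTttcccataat
A match describes these letters only, and binding was not measured. Around the loop and the unpaired C, the search counted 5 upper and 4 lower stem pairs in each ferritin site and 5 and 5 in each Tfrc site, and the 4 Tfrc hairpins follow each other within the last exon.

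The unit throughout is the UMI, a count of 1 RNA molecule read at its 3' end, so that gene length does not enter a level. UMIs of a gene were summed over the cells of a class and divided by all UMIs of that class (CPM, counts per 1000000 UMIs). With 1 library per age there is no replicate and no test. The 95% intervals of levels are exact Poisson intervals that cover counting error only. Some levels are also given by library, and a level without a library named is pooled over both and can differ between them. A gene is called past 2-fold where the ratio of 2 levels was at least 2 in the pooled cells and in each library.

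Of 5257 barcodes with 56204601 UMIs, 3791 cells were analysed, with 32802942 UMIs in the suffix 1 library and 17876901 in the suffix 2 library. The labels call all cells macrophages, but only 2039 cells (53.8%) formed macrophage, monocyte or dendritic clusters. Another 1686 (44.5%) formed fibroblast, endothelial, Schwann, muscle and keratinocyte clusters, here called stromal cells, and 66 were T or NK-like or mast-like cells. Macrophage cells made up 1595 of the kept cells of suffix 1 and 444 of those of suffix 2, so that sums over compartments weigh the libraries differently. Ptprc (CD45) stood at 534 CPM in the macrophage and 14.03 CPM in the stromal cells, and Adgre1, which encodes F4/80, at 377 and 10.9 CPM. Names were rebuilt from marker lists and end in "-like". The 566 cells of the Folr2 Lyve1 resident-macrophage-like class are called resident-like below. One macrophage cluster of 165 cells led by Spp1 and Gpnmb and one stromal cluster of 169 cells led by Hbb-bs and Rgs5 stayed unnamed, since no marker list led clearly. Leading genes of the former also held monocyte markers (Ly6c2, Plac8 and Chil3). Those of the latter held both endothelial (Cldn5) and pericyte or smooth muscle markers (Rgs5 and Acta2).

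Between the compartments, the haem-degrading enzyme, the light ferritin chain, the phagosomal transporter and transferrin were higher in macrophage cells, and ceruloplasmin was higher in stromal cells. These 5 of 9 genes passed 2-fold in both libraries, 4 upward and 1 downward. Of all 15135 genes with enough counts, 42.0% passed in either direction, so that the number of genes alone does not set the 9 apart. The median log2 ratio of the 9 was 1.33, against -0.49 over all genes tested, but this median is the value of Slc40a1, which rests largely on 1 cell. Without that cell, left out after the data were seen, the median was 0.97, and in suffix 2 alone it was 0.59, against -0.49 and -0.45 over all genes. Slc11a1, the natural resistance gene of phagocytes, stood at 127 CPM in macrophage and 7.97 CPM in stromal cells, a log2 ratio of 3.99 (3.78 to 4.21). Trf followed with 309 against 24.5 CPM (3.66, 3.54 to 3.78), and Hmox1 with 1296 against 144 CPM (3.17, 3.12 to 3.22). Ftl1 reached 8832 CPM in macrophage and 2763 CPM in stromal cells (1.68, 1.66 to 1.69).

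**Figure D1:**
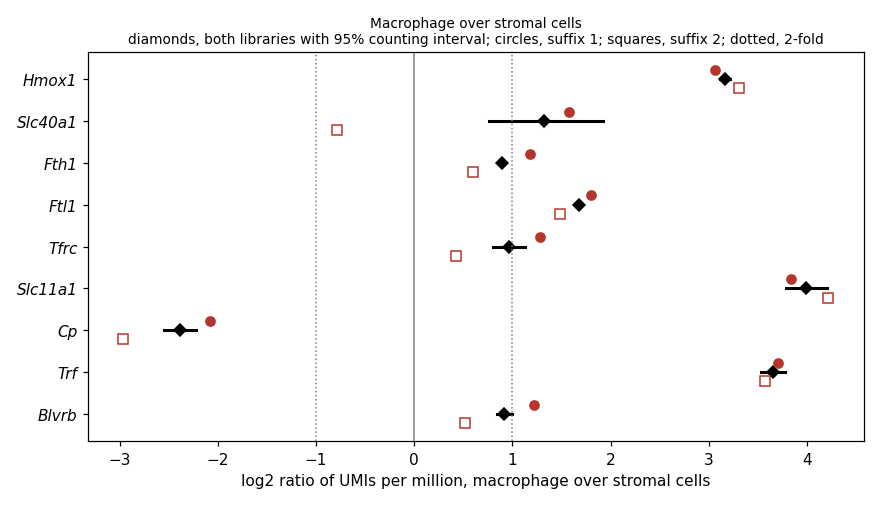
log2 ratio of CPM in macrophage over stromal cells for the 9 genes, with the pooled value and its 95% counting interval (diamond and bar) and the value of each library (circle, suffix 1; square, suffix 2). Slc11a1, Trf, Hmox1 and Ftl1 lie right of the upper 2-fold line in both libraries and Cp left of the lower one, while Fth1, Tfrc and Blvrb pass it only in suffix 1 and Slc40a1 changes side.

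The remaining 4 genes depended on the library. Fth1 was at 12413 CPM in macrophage and 5481 CPM in stromal cells of suffix 1, a log2 ratio of 1.18, and at 12079 and 8005 CPM in suffix 2, a ratio of 0.59. Blvrb showed 1.22 and 0.51, and Tfrc 1.28 and 0.42. All 3 were higher in the stromal cells of suffix 2 than in those of suffix 1, as with Tfrc at 21.6 against 15.8 CPM. In macrophage cells Tfrc stood at 38.4 CPM in suffix 1 and 29.0 CPM in suffix 2. Slc40a1 was higher in macrophage cells of suffix 1 (1.58) and lower in those of suffix 2 (-0.79). Cp stood at 15.2 CPM in macrophage and 79.4 CPM in stromal cells (-2.39, -2.55 to -2.23), and at -2.08 and -2.96 in the single libraries.

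Hmox1 levels ranged more widely over the macrophage groups than those of either ferritin chain. The gene lies on chromosome 8 (GRCm38, 75093621 to 75100589, plus strand, 5 exons). Resident-like cells held 3120 CPM (3070 to 3171), with 2943 CPM in suffix 1 and 3747 CPM in suffix 2. The inflammatory-macrophage-like cells, led by Cfd, Ccl3 and Il1a, came next at 1742 CPM (1495 and 2330 CPM by library). Monocyte-like cells had 1101 CPM, the Spp1 Gpnmb cluster 1032 CPM and the Dcstamp Cd226 Fn1 macrophage-like cells 849 CPM. Intervals of neighbours in this order overlapped only for the monocyte-like cells and the Spp1 Gpnmb cluster. Dendritic-like cells were lower at 508 CPM, and the 22 mature-dendritic-like cells held 45 Hmox1 UMIs, 22 of them in 1 cell. Resident-like cells exceeded the other macrophage cells 3.57-fold (log2 1.84, 1.81 to 1.87), by 1.73 in suffix 1 and 2.16 in suffix 2.

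The level also varied between the single cells of a group. The median resident-like cell had 23.1 Hmox1 UMIs per 10000 UMIs, with 3.38 at the 10th and 76.0 at the 90th percentile. The median was 10.8 in inflammatory-macrophage-like, 5.79 in monocyte-like and 0.683 in dendritic-like cells. After each cell was thinned to 2000 UMIs, 88.7% of resident-like cells (85.7 to 91.2) and 62.3% of all macrophage cells still showed a Hmox1 UMI. In skeletal muscle-like cells, which should hold little of it, the share was 1.92% (0.234 to 6.77). Without thinning these shares were 95.9%, 82.1% and 3.52%, at medians of 8748.5, 11036 and 4116.5 UMIs per cell.

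**Figure D2:**
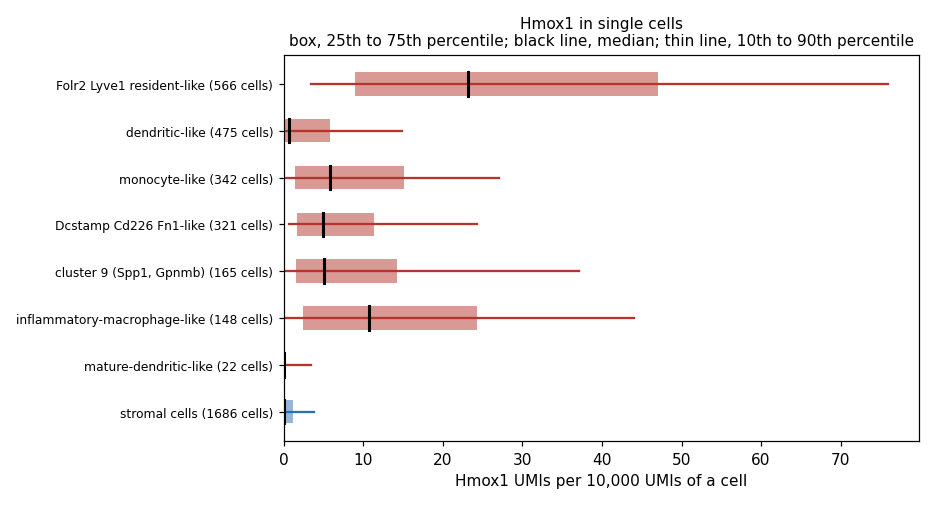
Hmox1 UMIs per 10000 UMIs of a cell in the 7 macrophage groups and in the stromal cells, with the median (black line), the 25th to 75th percentile (box) and the 10th to 90th percentile (thin line). The box of the resident-like cells starts at 8.93, above the median of every group but the inflammatory-macrophage-like cells.

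The resident-like class consists of 2 clusters, with 2671 and 3561 Hmox1 CPM. Dendritic-like clusters differed more. Cluster 5, led by Klrb1b, held 633 CPM and cluster 13, led by Ccr7, 661 CPM, the dividing cells of cluster 25 held 218 CPM, and cluster 17, led by Apod and Adam23, held 90.9 CPM. Hmox1 also answers to stress, and the 10 genes of early dissociation response (Fos, Jun, Egr1, heat shock genes and others) summed to 9137 CPM in resident-like cells against 1781 to 4073 CPM in the other macrophage groups. All 10 were counted in each of these groups. The median mitochondrial share was 5.80% in resident-like cells and 3.25% to 4.79% in the others. The part of both in the Hmox1 level was not tested.

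Stromal Hmox1 was highest in endothelial-like cells, at 324 CPM (383 and 266 CPM by library). This was 2.87-fold above the other stromal cells. Lymphatic endothelial-like cells held 243 CPM, of which 58 of 215 UMIs lay in 1 cell. The fibroblast-like class had 152 CPM, the Igfbp2 Grem1 Cyp26b1 fibroblast-like class 78.5 CPM and dermal-papilla-fibroblast-like cells 103 CPM. Keratinocyte-like cells (35.9 CPM) and skeletal muscle-like cells (11 CPM, 9 UMIs) were lowest and both passed 2-fold downward. The macrophage gene C1qa stood at 112 CPM in endothelial-like and 5.20 CPM in fibroblast-like cells. There were 2.90 Hmox1 UMIs per C1qa UMI in the endothelial-like and 29.3 in the fibroblast-like cells, but 1.02 in macrophage cells. The part of macrophage RNA in these levels was not tested.

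Blvrb, which reduces biliverdin and flavins, followed Hmox1 among macrophages. Resident-like cells held 377 CPM (365 and 419.5 CPM by library) and the other macrophage cells 108 CPM, a 3.49-fold difference (log2 1.80, 1.71 to 1.89). Inflammatory-macrophage-like cells had 206 CPM and monocyte-like cells 173 CPM. Dcstamp Cd226 Fn1 macrophage-like cells (83.2 CPM) and dendritic-like cells (37.6 CPM) passed 2-fold downward. In the pooled cells the fibroblast-like class reached 172 CPM, as high as monocyte-like cells within the intervals. By library the order of these 2 classes turned. Fibroblast-like cells held 121 CPM against 187 CPM in monocyte-like cells of suffix 1, and 209 against 127 CPM in suffix 2. Per Blvrb UMI there were 8.27 Hmox1 UMIs in resident-like and 13.5 in dendritic-like cells, but 0.884 in fibroblast-like cells.

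Ferritin mRNA was abundant everywhere. Fth1 and Ftl1 together took 2.12% of all UMIs in macrophage and 0.939% in stromal cells, and 3.14% in the Spp1 Gpnmb cluster. In the pooled cells Fth1 (chromosome 19, 9980598 to 9985098, plus strand) was highest there, at 18653 CPM. It stood at 16340 CPM in inflammatory-macrophage-like and 15242 CPM in monocyte-like cells. In suffix 2 alone the order turned, with 20877 CPM in inflammatory-macrophage-like cells and 15525 CPM in the Spp1 Gpnmb cluster. Resident-like cells held 11431 CPM, no more than the other macrophage cells (log2 -0.13, -0.15 to -0.12), with -0.21 in suffix 1 and 0.10 in suffix 2. High Fth1 was not a property of phagocytes alone. Schwann-like cells reached 15496 CPM (14819 and 16197 CPM by library), 2.46-fold above the other stromal cells, and lymphatic endothelial-like cells 13616 CPM. Keratinocyte-like cells had the lowest level, 2258 CPM.

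Ftl1 (chromosome 7, 45457944 to 45459884, minus strand) separated the compartments more cleanly. In the pooled cells macrophage groups held between 5672 CPM in dendritic-like cells and 12788 CPM in the Spp1 Gpnmb cluster. Stromal types held between 769 CPM in keratinocyte-like and 4298 CPM in dermal-papilla-fibroblast-like cells. In suffix 2 alone resident-like cells, at 12567 CPM, were above the Spp1 Gpnmb cluster, at 11716 CPM. The groups of the 2 compartments did not overlap in the pooled cells. In suffix 2 alone the mature-dendritic-like class held 236 Ftl1 UMIs in 5 cells, 133 of them in 1 cell, and its level carries no weight there.

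The ratio of light to heavy chain differed between cell types. It was 1.01 Ftl1 UMIs per Fth1 UMI in resident-like cells (0.994 to 1.02), 1.01 in suffix 1 and 0.98 in suffix 2. The other macrophage groups lay between 0.566 and 0.686, except the mature-dendritic-like cells at 2.20 (2.05 to 2.35), a class of 22 cells. Schwann-like cells had 0.142, lymphatic endothelial-like cells 0.155 and skeletal muscle-like cells 0.161. The retrocopy Ftl1-ps1 shares sequence with Ftl1, and its UMIs came to 0.722% of those of Ftl1 in macrophage and 0.417% in stromal cells. The effect of reads that match both on the Ftl1 level was not tested.

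The transferrin receptor mRNA was highest in the resident-like cells. Tfrc (chromosome 16, 32608920 to 32632794, plus strand) reached 94.97 CPM there (99.8 and 77.8 CPM by library) against 22.3 CPM in the other macrophage cells, a 4.25-fold difference (log2 2.09, 1.90 to 2.28). Monocyte-like cells had 40.4 CPM. Dcstamp Cd226 Fn1 macrophage-like (8.83 CPM), inflammatory-macrophage-like (14.8 CPM) and Spp1 Gpnmb cells (16.2 CPM) passed 2-fold downward, the last on 26 UMIs. Stromal types lay between 8.67 and 32.7 CPM. The dividing dendritic-like cluster 25 held 22.1 CPM, well under the resident-like level.

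Trf, best known as a protein the liver secretes, was higher in every macrophage group than in any stromal type in the pooled cells. The interval of mature-dendritic-like cells (62.33 to 133.7 CPM) overlapped those of lymphatic endothelial-like (38.97 to 70.53 CPM) and Schwann-like cells (37.95 to 69.15 CPM). In suffix 2 alone the mature-dendritic-like class held 3 Trf UMIs in 5 cells, 52.1 CPM, and lymphatic endothelial-like cells 59.96 CPM. Resident-like cells held 601 CPM (622 and 527 CPM by library) and inflammatory-macrophage-like cells 551 CPM, and their intervals overlapped. Dendritic-like cells held 281 CPM, but cluster 17 among them, which had the lowest Hmox1 of these clusters, held 507 CPM. No stromal type exceeded 53.0 CPM in the pooled cells. Fibroblast-like, Schwann-like and lymphatic endothelial-like cells each passed 2-fold upward among stromal cells, at 50.1, 51.8 and 53.0 CPM. In Schwann-like cells of suffix 1, 21 of 22 Trf UMIs lay in 1 cell, and without it the level there was 2.26 CPM, under the 23.5 CPM of the other stromal cells.

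Slc11a1 differed between macrophages and dendritic cells. The inflammatory-macrophage-like cells (243 CPM), the Spp1 Gpnmb cluster (209 CPM), monocyte-like cells (184 CPM), resident-like cells (169 CPM) and Dcstamp Cd226 Fn1 macrophage-like cells (126 CPM) all expressed it, and neighbours among the first 4 had overlapping intervals. Dendritic-like cells held 11.03 CPM, 15.4-fold under the other macrophage cells (log2 -3.94, -4.29 to -3.62), in both libraries (11.8 and 9.27 CPM). Thinned to 2000 UMIs, 2.36% of dendritic-like cells (1.18 to 4.18) had a UMI, against 26.2% of resident-like cells. Unthinned, the shares were 9.47% and 62.7%, at medians of 14485 and 8748.5 UMIs. Fibroblasts should lack the gene. It was seen in 0 of 260 thinned cells of the Igfbp2 Grem1 Cyp26b1 fibroblast-like class, which allows a share of up to 1.41%. In the fibroblast-like class the share was 0.489% (0.0593 to 1.76). The medians of these classes were 16708 and 11496.5 UMIs. The thinned shares of dendritic-like and fibroblast-like cells have overlapping intervals, but the level in dendritic-like cells (8.69 to 13.81 CPM) lay above those of the fibroblast-like (1.15 to 3.89 CPM) and Igfbp2 Grem1 Cyp26b1 fibroblast-like (0.352 to 2.53 CPM) classes.

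Among stromal clusters, the Hbb-bs Rgs5 cluster held 38.3 CPM of Slc11a1 (41.1 and 35.1 CPM by library), 7.95-fold above the other stromal cells. It had 0.622 Slc11a1 UMIs per C1qa UMI, where macrophage cells had 0.100. Haemoglobin mRNA summed to 9319 CPM in this cluster and to 2509 CPM in endothelial-like cells, against 16.6 to 80.2 CPM in every other macrophage or stromal class. All 4 haemoglobin genes were counted in the cluster. The part of red blood cell RNA and of macrophage RNA in the Slc11a1 level was not tested.

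Few UMIs were counted for the iron exporter. Slc40a1 (chromosome 1, 45908068 to 45926523, minus strand) gave 93 UMIs in the 2039 macrophage cells, 3.65 CPM, and 36 UMIs in the 1686 stromal cells, 1.46 CPM. Of the 93, 54 lay in 1 cell of the Spp1 Gpnmb cluster, from suffix 1. Without that cell the macrophage level was 1.53 CPM and the log2 ratio over stromal cells 0.07 instead of 1.33. Resident-like cells held 26 UMIs in 15 of 566 cells (5.43 CPM, 3.55 to 7.95), and dendritic-like cells none in 475 cells, which allows up to 0.535 CPM. Keratinocyte-like cells had 17 UMIs in 14 of 77 cells (6.24 CPM) and were 7.22-fold above the other stromal cells, but after thinning only 1 of 73 cells kept a UMI. Endothelial-like, Schwann-like and Igfbp2 Grem1 Cyp26b1 fibroblast-like cells had no UMI. Levels this low are near the limit of detection, and a full order of the groups was not detectable at this depth. The interval of resident-like cells lay above that of dendritic-like cells, but intervals of most neighbours in the order overlapped.

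The 1 cell with 54 Slc40a1 UMIs had 12733 UMIs in all and a doublet score of 0.0197. Its Hmox1 came to 91.1 UMIs per 10000, where the median cell of its cluster had 4.99, and its Fth1 to 736 where the median was 171. Cd163 and Tfrc had no UMI in it. It was picked after its values were seen.

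Cp had its highest level in a stromal type. Lymphatic endothelial-like cells held 792 CPM (708 and 932 CPM by library), 15-fold above the other stromal cells (log2 3.91, 3.77 to 4.04), and 82.7% of them (69.7 to 91.8) had a UMI after thinning. Schwann-like cells had 136 CPM, with 206 CPM in suffix 1 and 64.2 CPM in suffix 2. The fibroblast-like class had 127 CPM. Endothelial-like cells of blood vessels had 11.6 CPM and passed 2-fold downward, as did keratinocyte-like cells (6.24 CPM). Among macrophages, resident-like cells held 55.7 CPM (58.3 and 46.5 CPM by library) and the others 5.80 CPM, a 9.60-fold difference (log2 3.26, 2.95 to 3.59). Col1a1, a fibroblast gene, stood at 219 CPM in the resident-like macrophages and at 29319 CPM in the fibroblast-like class. There were 0.254 Cp UMIs per Col1a1 UMI in the former and 0.00432 in the latter. Lymphatic endothelial-like cells, with the most Cp, had 9.89. The part of stromal RNA in the Cp level of resident-like cells was not tested.

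**Figure D3:**
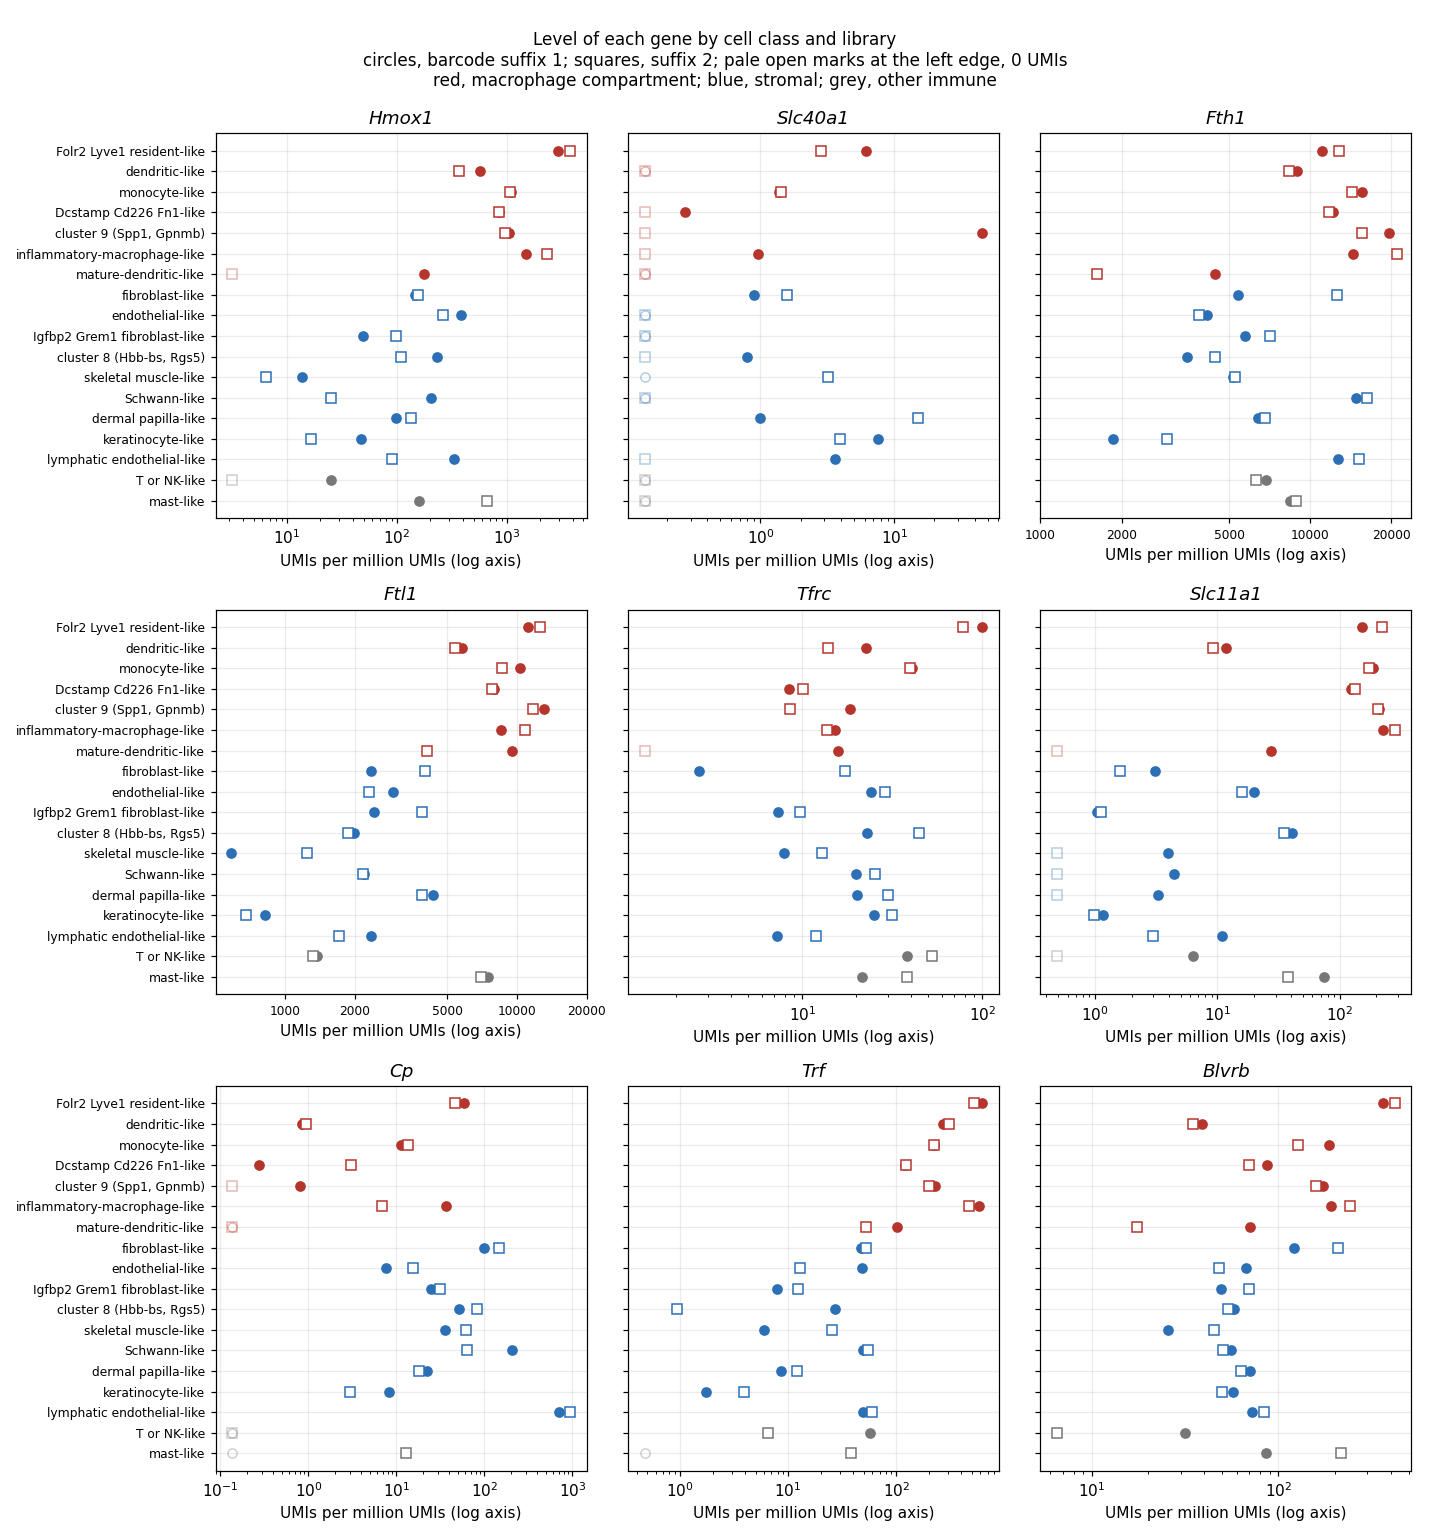
CPM (log axes) of each of the 9 genes in the 18 cell classes and both libraries (circles, suffix 1; squares, suffix 2; pale marks, 0 UMIs), macrophage groups in red, stromal types in blue and other immune cells in grey. Ftl1 and Trf mostly sit to the right in the red classes, as does Hmox1 apart from mature-dendritic-like cells and Slc11a1 apart from dendritic cells. Cp peaks in lymphatic endothelial-like cells, and Slc40a1 is at or near 0 in most classes.

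In resident-like cells Hmox1, Blvrb, Tfrc, Trf and Cp passed 2-fold upward over the other macrophage cells, 5 of 9, where 12.6% of 11749 genes passed in either direction. With dendritic classes left out of the comparison, a choice made after the data were seen, the same 5 passed, and Hmox1 was 1.54 on the log2 scale. In dendritic-like cells Hmox1, Slc11a1, Cp (on 6 UMIs) and Blvrb passed downward, 4 of 9 against 15.1% of all genes. In Dcstamp Cd226 Fn1 macrophage-like cells Tfrc, Cp (on 4 UMIs), Trf and Blvrb passed downward, 4 of 9 against 7.56%. The mature-dendritic-like cells had 5 of 9 downward (Hmox1, Fth1, Slc11a1, Trf and Blvrb), against 9.06%, with 5 cells in suffix 2. Only Tfrc passed, downward, in the Spp1 Gpnmb cluster (1 of 9, 4.93% of all genes) and in inflammatory-macrophage-like cells (1 of 9, 5.66%). No member passed in monocyte-like cells, where 5.05% of all genes did. Fat cell genes among the leading genes of the inflammatory-macrophage-like class came from 1 cell, which held 1120 of 1121 Cfd UMIs.

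**Figure D4:**
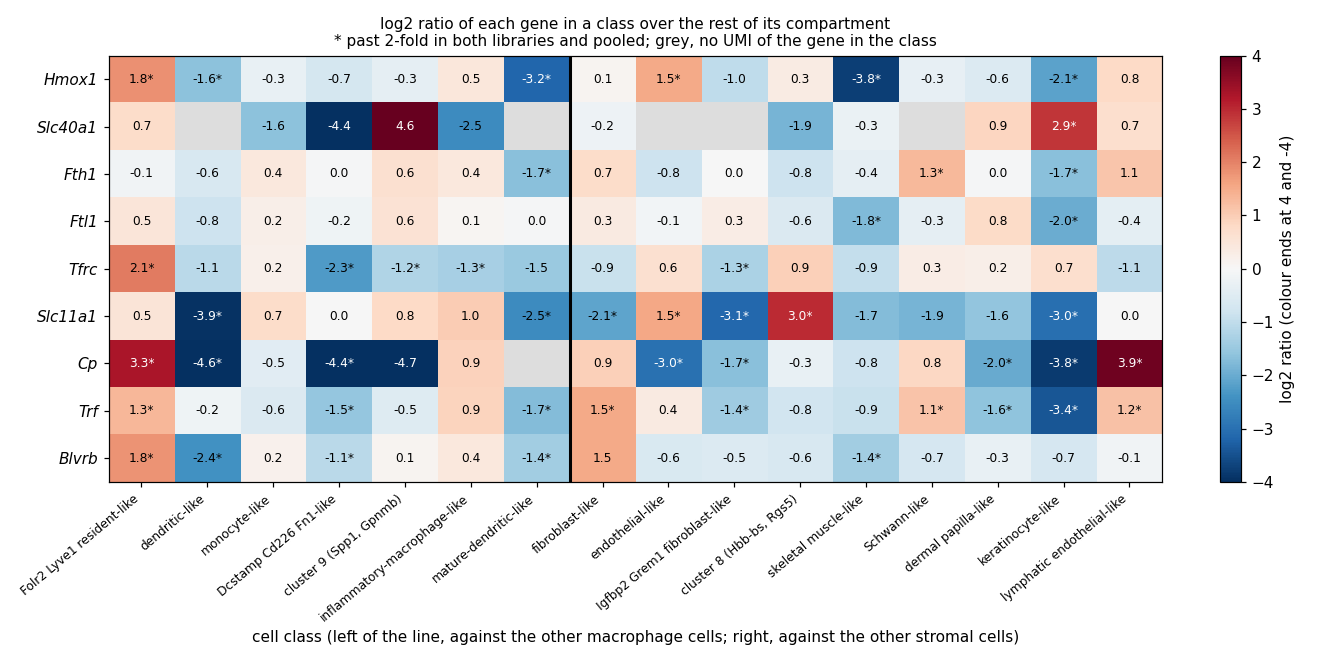
log2 ratio of each gene in a class over the rest of its compartment, macrophage groups left of the line and stromal types right of it, with an asterisk where the ratio passed 2-fold in both libraries and pooled. The resident-like column has 5 starred genes, all higher, the dendritic-like column 4, all lower, and Cp in lymphatic endothelial-like cells has the largest starred ratio upward (3.91).

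Among stromal types, members passed 2-fold in keratinocyte-like cells most often, 7 of 9 against 25.7% of 14064 genes. Of these, 6 were lower (Hmox1, Fth1, Ftl1, Slc11a1, Cp and Trf) and Slc40a1 was higher. In the Igfbp2 Grem1 Cyp26b1 fibroblast-like class 4 of 9 passed, all lower (Tfrc, Slc11a1, Cp and Trf), against 19.7%. Skeletal muscle-like cells were lower in Hmox1, Ftl1 and Blvrb, 3 of 9 against 20.9%. Endothelial-like cells were higher in Hmox1 and Slc11a1 and lower in Cp, 3 of 9 against 23.3%. The fibroblast-like class was higher in Trf and lower in Slc11a1, 2 of 9 against 21.1%. Schwann-like cells (Fth1 and Trf) and lymphatic endothelial-like cells (Cp and Trf) had 2 of 9 higher, against 17.6% and 14.2%. Dermal-papilla-fibroblast-like cells had 2 of 9 lower (Cp and Trf), against 14.5%, and the Hbb-bs Rgs5 cluster 1 of 9 higher, against 15.2%.

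The libraries resembled each other in macrophage cells. Of the 9 genes, 8 differed less than 2-fold between suffix 1 and suffix 2, and Slc40a1 was higher in suffix 1, 4.63 against 0.775 CPM, where 6.03% of all genes passed. Without the cell named above, Slc40a1 stood at 1.79 CPM in suffix 1, and the log2 ratio fell from 2.58 to 1.21, still past 2-fold on 5 UMIs in suffix 2. Hmox1 differed by -0.03 on the log2 scale (-0.06 to 0.01) and Slc11a1 by -0.02 (-0.13 to 0.10), while Tfrc differed by 0.41 (0.17 to 0.64). In stromal cells none of the 9 passed, against 12.1% of all genes.

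Within single classes the libraries differed more. Fth1 in the fibroblast-like class was 5391 CPM in suffix 1 and 12591 CPM in suffix 2, and Tfrc 2.67 and 17.2 CPM. Different clusters hold this class in the libraries, since cluster 20 has 54 of its 55 cells in suffix 1 and cluster 0 has 295 of 358 in suffix 2. The log2 ratio of Hmox1 in suffix 1 over suffix 2 was -0.35 (-0.40 to -0.29) in resident-like and -0.64 (-0.75 to -0.53) in inflammatory-macrophage-like cells. In Schwann-like cells it was 204 CPM in suffix 1 and 25.2 CPM in suffix 2, with 36 of 92 UMIs of suffix 1 in 1 cell. Age and library cannot be told apart here.

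A list of 59 other genes of iron and haem handling gives the setting. Of 53 with enough counts, 10 were past 2-fold higher in macrophage and 12 higher in stromal cells, where 11.2% of all genes were higher in macrophage and 30.8% higher in stromal cells, and their median log2 ratio was -0.09. The most abundant in macrophage cells were Bach1, the haem-sensing repressor of Hmox1, at 463 CPM, the ferritin iron chaperones Pcbp2 (461 CPM) and Pcbp1 (369 CPM), the thioredoxin reductase Txnrd1 (350 CPM) and Nfe2l2 (337 CPM), which encodes NRF2. Of these only Bach1 passed 2-fold, with 153 CPM in stromal cells.

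Both haem breakdown genes of the list (Blvra and Hmox2), 2 of 3 transcriptional regulators (Bach1 and Spic) and 2 of 10 tested uptake genes (Slc11a2 and Cd163) were higher in macrophages, while 4 uptake genes were lower (Slc39a8, Steap3, Steap4 and Cybrd1). Spic, the factor behind iron-recycling macrophages of the spleen, stood at 22.9 CPM against 0.364 CPM (9 UMIs) in stromal cells, a log2 ratio of 5.98. Cd163, the receptor for haemoglobin bound to haptoglobin, had 262 against 4.33 CPM (5.92). Both were higher still in resident-like cells, at 68.9 and 661 CPM. Blvra, the other biliverdin reductase, had 57.0 against 15.7 CPM. Slc25a28, a mitochondrial iron importer, had 89.3 against 23.7 CPM and Hfe, which acts with transferrin receptors, 67.3 against 18.8 CPM. Of the NRF2 targets, the cystine transporter Slc7a11 had 253 against 17.6 CPM and Srxn1 passed as well, while Nqo1 was lower in macrophages. Slc7a11 was low in resident-like cells (28.2 CPM) and high in inflammatory-macrophage-like cells (418 CPM). In resident-like against other macrophage cells, 5 of 46 tested list genes passed upward (Slc11a2, Slc39a8, Steap4, Cd163 and Spic), where 6.37% of all genes did. Another 3 passed downward, Hp and Slc7a11 among them, where 6.20% did. Hp had 4 UMIs in resident-like cells, and 499 of its 542 macrophage UMIs lay in suffix 1. With Cfd and Car3, Hp was a leading gene of the inflammatory-macrophage-like class, where nearly all Cfd UMIs lay in the same cell.

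Of the export, carrier and hepcidin axis genes, 2 of 3, 1 of 3 and 3 of 5 tested were higher in stromal cells, as were 30.8% of all genes, and counts this small set no role apart. Bmp6, the endothelial signal that raises hepcidin, gave no UMI in macrophage cells and 10.5 CPM in stromal cells, at least 89.3-fold lower against a floor of 3 UMIs over the group. Heph, a ferroxidase like Cp, had no macrophage UMI and 4.25 CPM in stromal cells, at least 36.1-fold lower. The siderophore binder Lcn2 had 1.33 against 83.0 CPM and reached 1092 CPM in lymphatic endothelial-like cells, where Cp was also highest. Cybrd1, a ferric reductase, had 0.0785 CPM (2 UMIs) against 3.68 CPM. The haem exporter Abcg2 had 2.95 against 60.3 CPM, with 249 CPM in endothelial-like cells. Erfe, the erythroferrone hormone, had 1.73 against 28.6 CPM, and 666 of its 708 stromal UMIs came from skeletal muscle-like cells. None of the 3 iron sensing genes passed, and of the 9 haem synthesis genes only Cpox did, lower in macrophages.

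**Figure D5:**
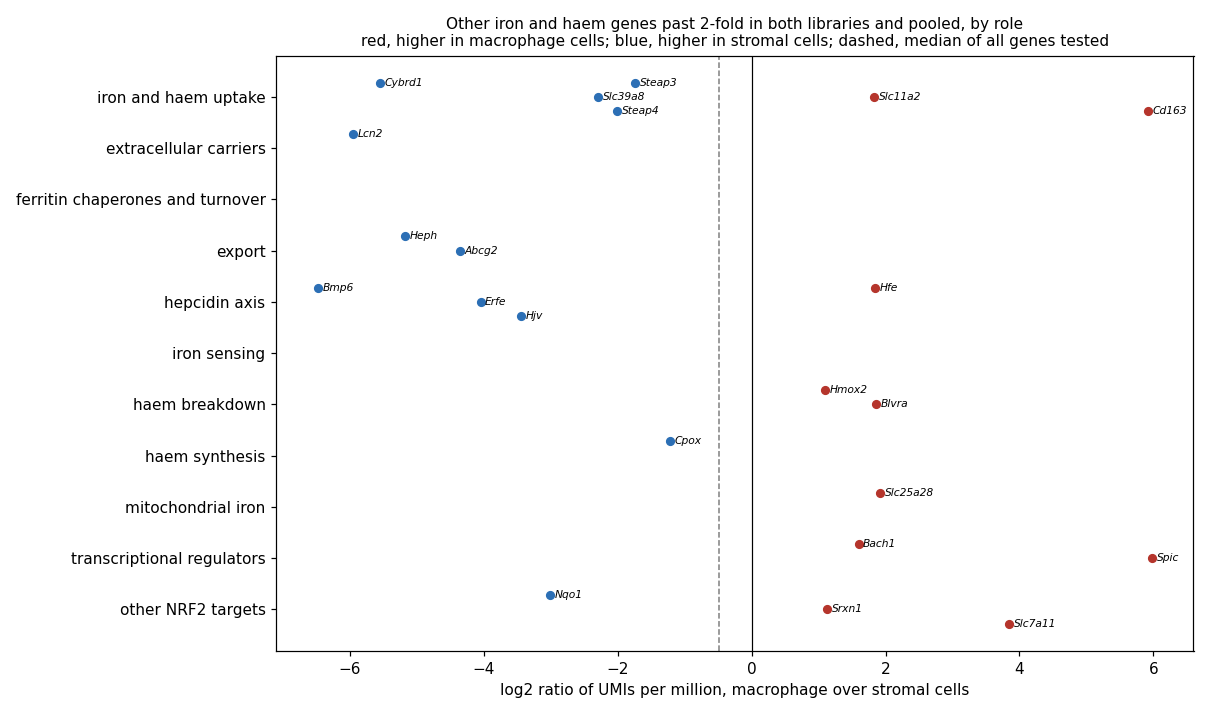
log2 ratio of CPM in macrophage over stromal cells for the genes of the wider list past 2-fold in both libraries and pooled, by role (10 higher in red, 12 lower in blue; tested genes not past 2-fold are not drawn). Cd163, Spic and Slc7a11 lie farthest right and Bmp6 and Lcn2 among the farthest left, while the rows of the iron sensing and ferritin chaperone genes are empty.

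Over the 18 classes, the genes whose level was most like that of Hmox1 were Cd14 (Pearson r = 0.95), Rgl1 (0.94), Csf1r (0.94), Plekho2 (0.93) and Slc8b1 (0.93), out of 10571 genes compared on log2(CPM + 10). All but Cd14 were highest in resident-like cells. Among the 9 genes, Hmox1 ran with Slc11a1 (r = 0.86), Ftl1 (0.86), Trf (0.82) and Blvrb (0.80), and not with Cp (-0.05). The 18 classes share 2 libraries and differ in depth, and these values are descriptions. For Slc40a1 the best match was Aprt (r = 0.72), followed by Coa7, Prune1, Asna1 and Cdk20, all highest in the Spp1 Gpnmb cluster, where 54 of 57 Slc40a1 UMIs lay in 1 cell. The likenesses without that cell were not computed.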

How the data were processed

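Deposited UMI counts were analysed. Per the labels and the file header, the authors made these whole-number counts with Cell Ranger 4.0.0 on the mm10 build, from 3' droplet libraries, and deposited both libraries as 1 matrix without normalization. Whether cells were filtered before deposit was not stated. Skin was digested with enzymes before the sort, which can induce stress genes.

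Barcodes with 500 or more genes, 1000 or more UMIs and mitochondrial UMIs of 10% or less were kept (3797). Scrublet called 6 doublets, too few to have worked, so that doublets count as untreated. One barcode sequence occurred in both libraries. After scaling to 10000 UMIs a cell and a log (Python 3.11.15, scanpy 1.11.5, numpy 2.4.6, scipy 1.17.1), 2000 variable genes, without the 9 genes and the 59 of the wider list, 30 principal components and 15 neighbours gave 28 Leiden clusters (leidenalg 0.10.2, resolution 1, seed 1). A name needed 3 markers of a list at 20 CPM and 2-fold over the median cluster, and a lead over the next list.

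UMIs were summed per class and library. Genes with 20 or more UMIs in the pooled sums of a comparison could be called past 2-fold, and a sum of 0 was replaced by a floor of 3 counts. No p-value was computed: 1 library stands for each age, and its cells share their source. The calls were tested on simulated data. Members, lists and tests were chosen with earlier results of these data known. Named genes were the 9 members, of the wider list the 5 most abundant in macrophage cells and up to 6 per direction with the largest ratio, and the 5 genes most like Hmox1 and Slc40a1 over classes (200 or more UMIs). Other genes are named to complete counts or as markers. Alternatives varied the limits on barcodes, clustering, doublet removal, weighting, fold and library. One item of the wider list is not reported here. Positions and sequences come from GENCODE vM21 (GRCm38).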

Additional observations from a re-analysis of the deposited data

Results flagged for a closer look

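Mast-like and T or NK-like cells entered no comparison. In the 32 mast-like cells Hmox1 stood at 390 CPM, above the 144 CPM of stromal cells, but 42 of its 67 UMIs lay in 1 cell, and the level was 155.5 CPM without it. Ftl1 reached 7298 CPM in these cells, above every stromal type and within the range of the macrophage groups, and Slc11a1 stood at 58.2 CPM on 10 UMIs. C1qa, a macrophage gene, was at 192 CPM there, and its part was not tested. Among the 719 barcodes over the mitochondrial limit that passed the other limits, which the filter left out, Hmox1 stood at 266 CPM (251 to 282), between the levels of stromal and macrophage cells. These values were picked out because they lie in cells outside the comparisons and above the limit that a count of 0 allows.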

How the results depend on the processing

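With both libraries required, 5 genes passed between macrophage and stromal cells under every alternative but the 1.5-fold threshold, where 6 did. In resident-like cells 5 passed under all but the stricter limits on cells and the mean over cells, where 4 did. Single libraries entered no such count. In suffix 1 alone Slc40a1 (log2 1.58), Tfrc (1.28), Blvrb (1.22) and Fth1 (1.18) also lay past 2-fold between the compartments. In suffix 2 alone Slc11a1 also lay past 2-fold in resident-like cells (1.04). Over all comparisons and alternatives, 111 counts stayed within 1.5 times the reported one and 33 did not. No log2 ratio called past 2-fold in these comparisons changed sign, whereas the uncalled ones of Slc40a1 (both comparisons), Fth1 and Slc11a1 (resident-like) did under some. The stricter limits (1000 genes, 2000 UMIs, 5% mitochondrial) left 2150 cells and moved most counts: 1 gene passed in Dcstamp Cd226 Fn1 macrophage-like, fibroblast-like, endothelial-like, keratinocyte-like and lymphatic endothelial-like cells and between the libraries in stromal cells, 2 in the Igfbp2 Grem1 Cyp26b1 fibroblast-like class, and 0 in inflammatory-macrophage-like and Schwann-like cells. With looser limits 0 passed in inflammatory-macrophage-like and 1 in dermal-papilla-fibroblast-like cells. At resolution 2, 3 passed in monocyte-like and 1 each in fibroblast-like, endothelial-like and dermal-papilla-fibroblast-like cells. With 3000 variable genes, 0 passed in inflammatory-macrophage-like cells and 1 in each of the fibroblast-like and Igfbp2 Grem1 Cyp26b1 fibroblast-like classes. With doublet scores of 0.2 or more removed, 0 passed in inflammatory-macrophage-like and 1 each in Schwann-like and dermal-papilla-fibroblast-like cells. By the mean over cells, 4 passed in fibroblast-like, 1 in endothelial-like and 0 in Schwann-like cells, and 2 in the Hbb-bs Rgs5 cluster. At 1.5-fold, 7 passed in dendritic-like, 2 in Spp1 Gpnmb, 3 in inflammatory-macrophage-like, 4 in fibroblast-like, 3 in Hbb-bs Rgs5, 5 in skeletal muscle-like and 4 in lymphatic endothelial-like cells. With dendritic classes left out, chosen after seeing the data, 2 passed in the Spp1 Gpnmb cluster. The causes were not tested.

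Monocyte-like cells under the doublet limit, Dcstamp Cd226 Fn1 and inflammatory-macrophage-like cells at resolution 0.5 and both unnamed clusters under re-clustering gave no value, since no class of that name formed. The log2 ratio of Slc40a1 between compartments ranged from -0.79 (suffix 2 alone) to 2.18 (stricter limits), and that of Slc11a1 in resident-like cells from -0.04 to 1.04. Trf in resident-like cells went down to 0.97 under the stricter limits. No paired analysis was possible because each age has 1 library and the suffixes are not tied to ages. Slc40a1 gave 93 UMIs in macrophage cells, too few for a full order of the groups.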
